A study of Mus musculus with 10 samples.

Results

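The genes described here are 37 mouse genes of the ATF4 amino acid stress response, chosen by name from the raw count table. They cover serine and one-carbon synthesis, asparagine, proline and phosphoenolpyruvate synthesis, amino acid transport, tRNA synthetases, stress factors and stress outputs. All 37 were found among the 52636 genes of the table, and 35 were among the 15916 genes that passed the filter on low counts. The other 2, Nupr1 and Chac1, were nearly silent. The libraries came from a mouse leukaemia model named DIN, in which fetal liver cells received 3 retroviral MSCV vectors carrying DNMT3A R882H, IDH2 R140Q and NRAS G12D. The NRAS vector also carries TTA, which drives the regulated vector. Transduced cells went into irradiated Ptprca recipients, and leukaemic cells frozen from sick mice were transplanted again into Ptprca recipients. In doxycycline-fed mice the DNMT3A R882H vector was turned off (off), and in untreated mice it stayed on (on). IDH2 R140Q and NRAS G12D were carried by the cells of all groups. Progenitors with cKit and without Cd11b at the surface were collected by flow sorting of marrow and spleen after 5 or 14 days, and RNA was sequenced from its 3′ end. Day 14 off has 4 libraries, and each of the other groups (day 14 on, day 5 off, day 5 on) has 2.

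The labels leave unsaid whether libraries are separate mice, so p-values measure the spread between these libraries, and they do not tell marrow libraries from spleen libraries. Doxycycline was not given to cells lacking the regulated vector, so a direct effect of doxycycline and that of losing DNMT3A R882H cannot be told apart. In these bulk RNA measurements, fewer cells of a type and less RNA per cell also cannot be told apart.

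ATF4 is a transcription factor whose protein is made when the translation factor eIF2 is phosphorylated, as happens in cells short of amino acids, with misfolded protein in the endoplasmic reticulum, with failing mitochondria or, in red cell precursors, short of heme. It then switches on genes that make, import and charge amino acids, together with feedback genes that restrain growth. ATF4 often binds a short element named CARE (C/EBP-ATF response element), and its own control is largely at translation, which RNA counts do not measure.

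Total counts ran from 9292644 to 14340624 per library, and a count of 0 allows at most 0.209 to 0.323 CPM (3 counts of the total, counting error only). CPM is the read count scaled to library size, and levels below are CPM after TMM scaling. Mouse Dnmt3a had 32.3, 31.9, 35.6 and 39.2 CPM in day 14 off libraries, against 55.9 and 73.6 CPM in day 14 on libraries, and 65.6 and 50.2 CPM in day 5 off libraries, against 52.8 and 51.2 CPM in day 5 on libraries. It was called lower at day 14 (log2 change -0.90 ± 0.16, edgeR adjusted p = 0.00186), and the day 5 groups overlapped. Whether reads of the vector are counted under this gene is not given in the sources used here, so Dnmt3a checks the labels only in part. Kit, the gene of the sorted marker, had a mean of 34.5 ± 2.52 CPM in day 14 off libraries (SD, n = 4) and 93.5 ± 6.48 CPM in day 14 on libraries (SD, n = 2). Itgam, which encodes Cd11b, had 3.15 ± 0.744 CPM (SD, n = 4) and 15.3 ± 9.27 CPM (SD, n = 2) in the same groups, and both genes were called lower, Itgam not without day 14 on replicate 1 (edgeR adjusted p = 0.140). The day 5 on libraries differed most from each other: 15 of the 35 tested genes of the list differed at least 1.5-fold between them, against 6 between the day 14 on libraries and 3 between the day 5 off libraries.

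Promoter sequences show where the list carries the CARE letters. Windows of RefSeq (GRCm38.p6) from 250 bases before to 50 after each transcription start were searched on either strand for the letters TGATG, then any base, then AA. RefSeq windows were matched for 31 of the 37 genes by symbol, and for Slc7a5, Slc1a5, Cars, Lars, Nars and Wars none was matched. The motif was found in 13 of the 31 genes (41.9%). It was in 4.51% of all 27025 genes with a window and 2.78% of the 10131 tested genes with a window. The list was chosen by name as ATF4 pathway genes, so its higher share is no independent support for it. Each line below is 1 window of 30 bases, 5′ to 3′ on the gene's own strand, with the motif or its reverse complement in capitals. The first 5 lines are genes of the list that were called higher at day 14 off and carry the motif, and the last 3 are genes that carry it and were not called. The windows lie at chr6:7693214-7693243 (Asns, minus strand), chr14:55540152-55540181 (Pck2, plus), chr6:55037960-55037989 (Gars, plus), chr15:11399655-11399684 (Tars, minus), chr13:49682126-49682155 (Iars, plus), chr1:191183425-191183454 (Atf3, minus), chr2:152344028-152344057 (Trib3, minus) and chr3:50443661-50443690 (Slc7a11, minus).
Asns: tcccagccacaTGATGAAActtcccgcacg
Pck2: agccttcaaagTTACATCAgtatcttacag
Gars: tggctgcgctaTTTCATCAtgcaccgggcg
Tars: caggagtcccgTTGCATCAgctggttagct
Iars: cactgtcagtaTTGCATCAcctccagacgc
Atf3: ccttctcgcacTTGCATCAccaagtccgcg
Trib3: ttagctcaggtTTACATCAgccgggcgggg
Slc7a11: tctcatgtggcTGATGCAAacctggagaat

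The motif was present in genes of the list with and without a call. Of the genes with a window it was in 6 of 14 that were called higher at day 14 off, 0 of 2 called lower, 5 of 13 not called and 2 of 2 not tested. Among all tested genes with a window, 2.53% of those called higher, 3.47% of those called lower and 2.68% of those not called carried it. A match in these letters is a description of the window and not a binding site.

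**Figure D1:**
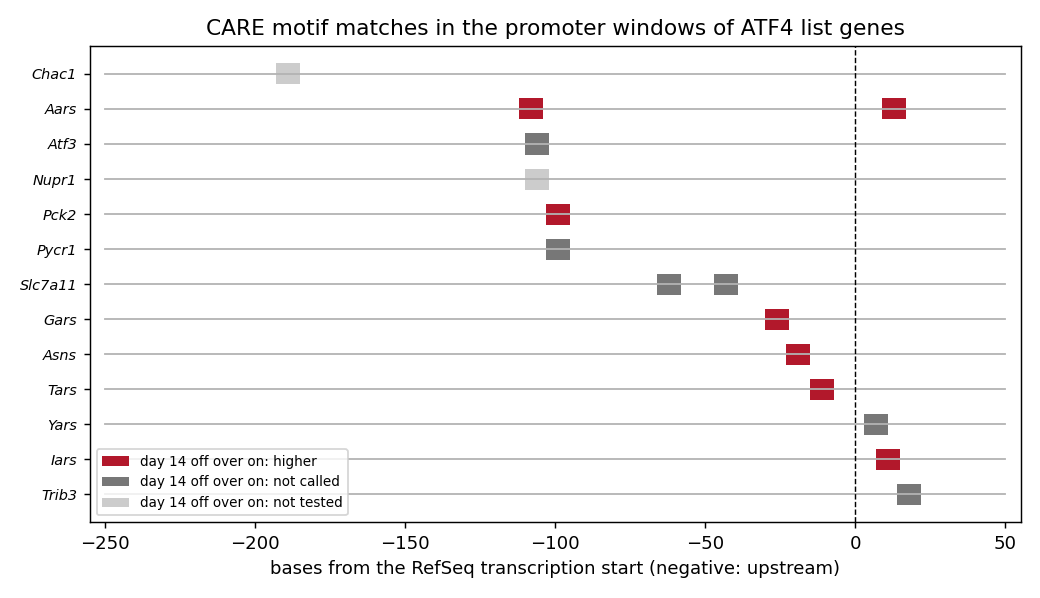
Position of the 15 CARE motif matches in the promoter windows of the 13 genes that hold one, in bases from the RefSeq transcription start (negative is upstream); colour gives the call at day 14, off over on. Matches of the genes called higher lie between 112 bases upstream and 9 bases downstream of the start, within the span of the others.

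At day 14, genes for making and charging amino acids were called higher with DNMT3A R882H off, and few genes of the list were called lower. At an adjusted p of 0.05 in edgeR's quasi-likelihood test (Benjamini-Hochberg, adjusted over the 15916 genes), 18 of 35 genes were higher and 2 were lower. In the same comparison 16.9% of all tested genes were called higher and 14.9% lower, 31.8% in all. The list was chosen with earlier results of these data known, so these shares are not an independent test of it. The higher genes were Asns, Aldh18a1, Mthfd1l, Slc7a5, Mthfd2, Pck2, Gars, Psat1, Cars, Shmt2, Aars, Tars, Mars, Eprs, Iars, Lars, Ddit3 and Nars, and 7 of them changed at least 2-fold. The lower genes were Ddit4 and Cebpg. The median log2 change (off over on) over the 35 genes was 0.57, against 0.01 over all tested genes. In 21 of the 35 genes every off library lay above both on libraries, and in 3 every off library lay below them; over all tested genes these shares were 27.9% and 24.6%.

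**Figure D2:**
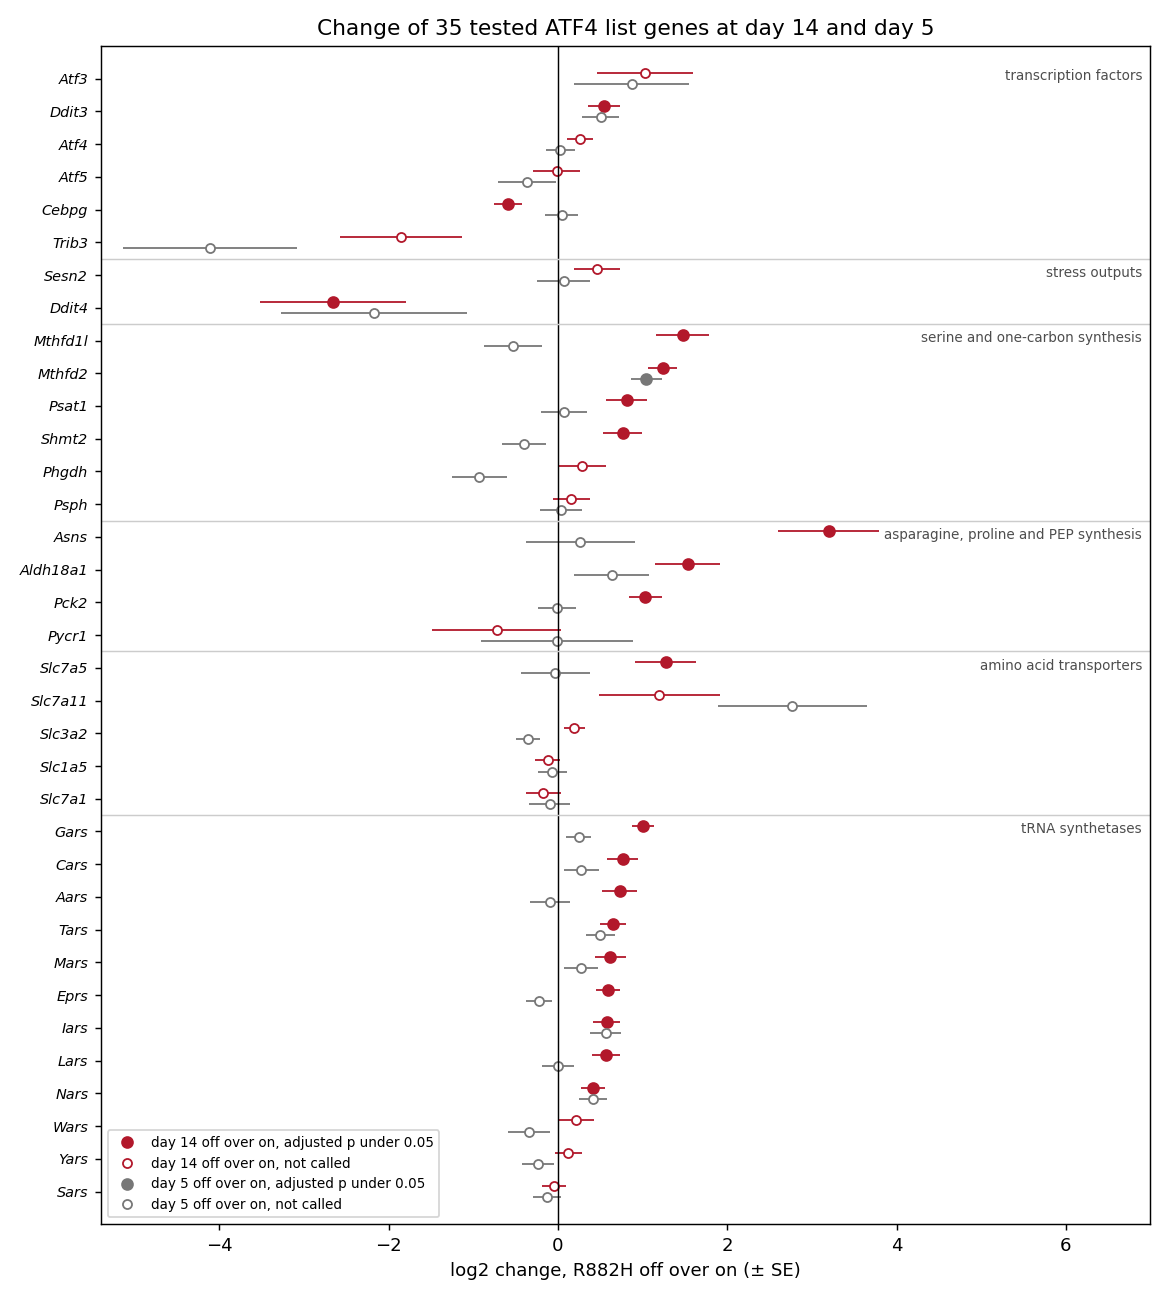
Log2 change (off over on) with standard error for the 35 tested genes of the list at day 14 (red) and day 5 (grey), grouped by role; filled points had an edgeR adjusted p under 0.05. At day 14, 18 filled points lie to the right of 0 and 2 to the left, while at day 5 the one filled point is Mthfd2.

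The count depended on which libraries were in the fit. Without day 14 on replicate 1, 5 genes of the list were called higher and 0 lower, while the share of all genes called was 17.8%. Without day 14 on replicate 2 there were 9 higher and 1 lower, with 19.5% of all genes called. Without day 14 off replicate 1 or day 14 off replicate 2 there were 9 higher and 1 lower each. Of all genes 24.6% and 25% were then called. The lower count was also 1 without day 14 off replicate 4 and without either day 5 off replicate. Calls of 4 genes, Asns, Gars, Mthfd2 and Pck2, were kept in every alternative in which the gene was tested. Asns was left untested by a stricter filter of 5 CPM in at least 2 libraries.

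At day 14 the summed erythroid and granulocyte markers differed between off and on libraries, while sums of the other cell types overlapped. The calls below stand beside 16.9% of all tested genes called higher and 14.9% called lower. The 16 erythroid markers summed to 3808 to 5107 CPM in day 14 off libraries, against 1632 to 2267 CPM in day 14 on libraries, and 10 of them were called higher. The globin genes Hba-a1, Hba-a2, Hbb-bs and Hbb-bt were not called. The 14 granulocyte and neutrophil markers summed to 692 to 1020 CPM in day 14 off libraries, against 1133 to 2003 CPM in day 14 on libraries, and 5 of the 13 tested were called lower. The 10 monocyte and macrophage markers summed to 791 to 1640 CPM and 651 to 2030 CPM in the same groups, and 4 were called lower. Megakaryocyte markers summed to 42.8 to 68.1 CPM and 48.4 to 61.7 CPM, mast cell and basophil markers to 31.8 to 43.5 CPM and 20.1 to 35.03 CPM, and lymphoid markers to 39.4 to 74.4 CPM and 42.4 to 64.1 CPM. Of 7 tested megakaryocyte markers 2 were called higher (Gp5 and Gp1ba) and 1 lower (Itga2b). Of 4 tested mast cell and basophil markers 1 was called lower (Mcpt8), and of 7 tested lymphoid markers 1 was called lower (Nkg7). No marker of these lists was at 0 in all 10 libraries, and their part in the changes of the list was not tested.

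Atf4 itself was little different in RNA between the groups. Atf4 (ENSMUSG00000042406, chromosome 15, 80255184 to 80257541, mm10) had 161, 145, 142 and 126 CPM in day 14 off libraries, against 116 and 124 CPM in day 14 on libraries. All off libraries lay above both on libraries, by a narrow margin. The log2 change was 0.26 ± 0.15 (edgeR adjusted p = 0.221), which did not pass the test. At day 5 Atf4 had 129 and 140.1 CPM in off libraries, against 111 and 153 CPM in on libraries, so that the off values fell between the on values.

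The other transcription factors of the list went both ways. Ddit3, which encodes CHOP, a factor that ATF4 induces and that favours cell death, had 39.1, 41.0, 29.9 and 37.9 CPM in day 14 off libraries, against 22.1 and 28.6 CPM in day 14 on libraries. The groups did not overlap, and the log2 change was 0.54 ± 0.19 (edgeR adjusted p = 0.0477). This call was lost in 15 of 19 alternatives, with adjusted p up to 0.379, reached without day 14 on replicate 1. It was kept with replicate number as a term, with non-robust dispersion, without day 14 off replicate 3 and without day 5 on replicate 2. Ddit3 also shares 68 exonic bases with Mars on the opposite strand, and the strand setting of the counting is not given in the sources used here, so reads in that stretch cannot be assigned to 1 of them.

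Cebpg, which encodes C/EBP gamma, a dimer partner of ATF4, went the other way. It had 40.7, 32.1, 32.1 and 39.1 CPM in day 14 off libraries, against 58.8 and 50.04 CPM in day 14 on libraries. The groups did not overlap, and the log2 change was -0.60 ± 0.17 (edgeR adjusted p = 0.0193), lost without day 14 on replicate 1 (0.130).

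Trib3 encodes a pseudokinase that ATF4 and CHOP induce and that dampens ATF4. It had 2.54, 2.12, 1.72 and 0.847 CPM in day 14 off libraries, against 4.77 and 8.40 CPM in day 14 on libraries. Every off library was below both on libraries. The log2 change of -1.85 ± 0.72 did not pass the test (edgeR adjusted p = 0.0755); it was called lower with no low-count filter, with DESeq2, when only the compared groups were fitted and without either day 5 on replicate (adjusted p from 6.35e-07 to 0.0285). Atf3 had a log2 change of 1.03 ± 0.57 (edgeR adjusted p = 0.199) and Atf5 of -0.01 ± 0.28 (0.972), and neither passed. Nupr1, a stress-induced chromatin protein gene, lay between 0 and 0.674 CPM over the 10 libraries and was not tested.

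Of the stress outputs, Ddit4 was called lower with R882H off. Ddit4 encodes REDD1, an inhibitor of mTORC1 that is also induced by low oxygen and by glucocorticoids. It had 35.1, 26.0, 165 and 25.3 CPM in day 14 off libraries, against 414 and 381 CPM in day 14 on libraries. The groups did not overlap, although off replicate 3 stood well above the other off libraries. The log2 change was -2.66 ± 0.86 (edgeR adjusted p = 0.0396), and the call was lost in 8 of 19 alternatives, among them the fits without day 14 on replicate 1 (0.154) and without day 14 on replicate 2 (0.125). It was also lost without day 14 off replicate 1 (0.0875), day 14 off replicate 2 (0.0792), day 14 off replicate 4 (0.0815), day 5 off replicate 1 (0.0620) and day 5 off replicate 2 (0.0593), and in a fit with replicate number as a term. Sesn2, a leucine sensor gene that also restrains mTORC1, changed by 0.46 ± 0.27 (edgeR adjusted p = 0.224) and did not pass. Chac1, which encodes a glutathione-degrading enzyme and is among the sharpest ATF4 targets in many cells, lay between 0 and 0.450 CPM over the 10 libraries and was not tested.

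**Figure D3:**
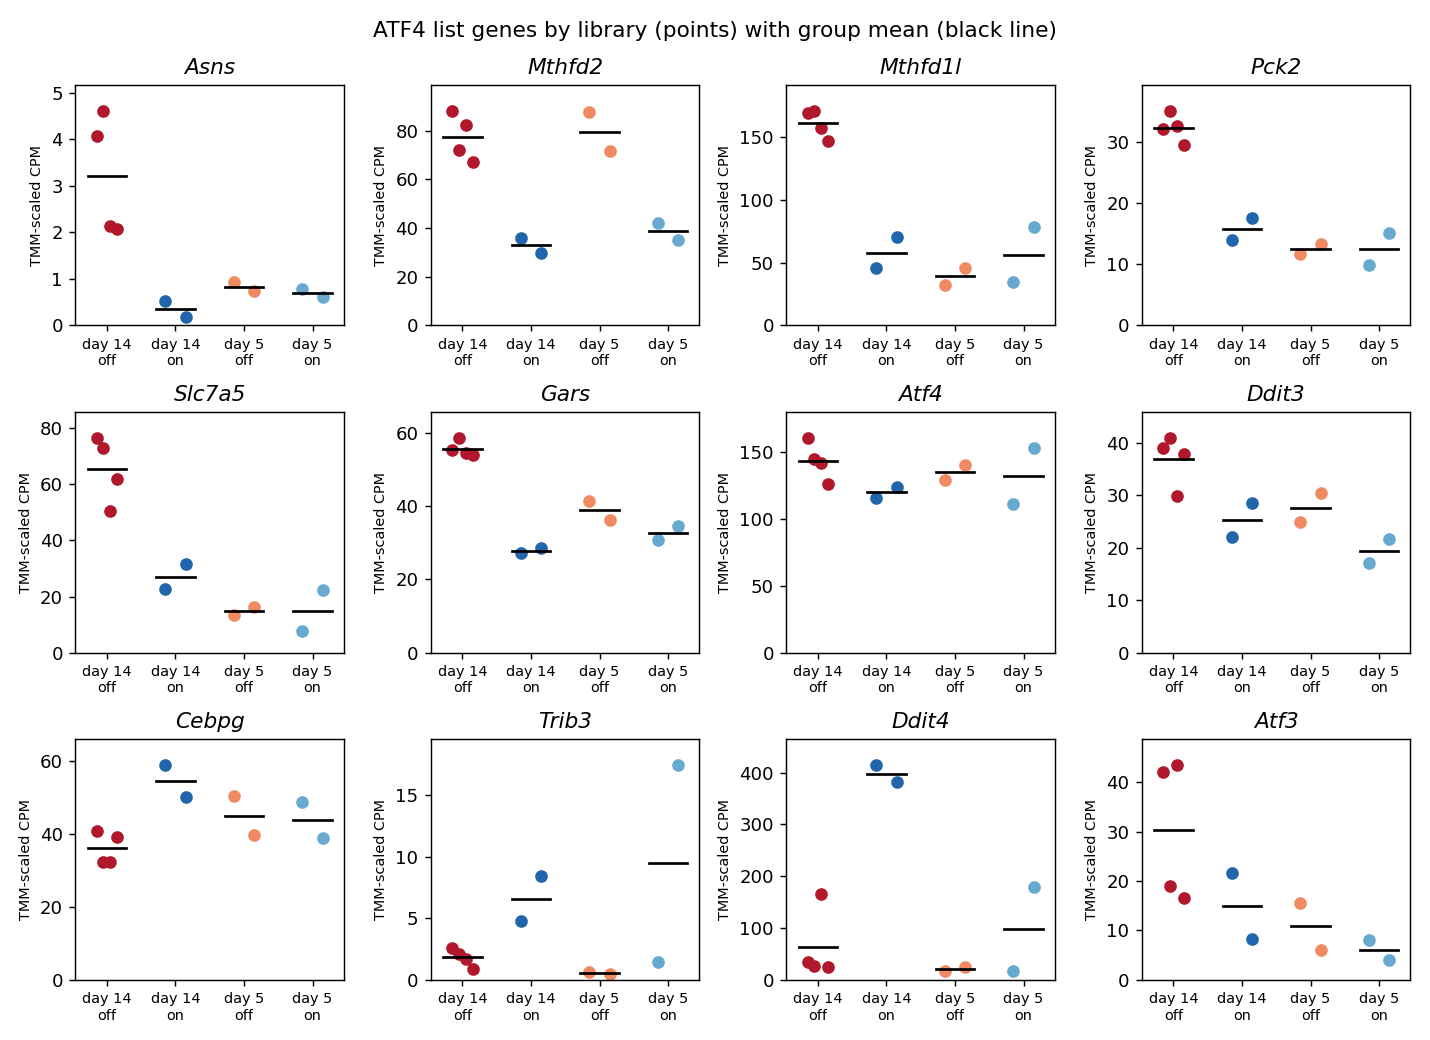
Level (TMM-scaled CPM, linear axes from 0) of 12 genes of the list in each of the 10 libraries, as points, with the group mean as a black line; day 14 off has 4 libraries and the other groups 2 each. Asns, Mthfd1l, Pck2, Slc7a5 and Gars are highest in the day 14 off libraries, Mthfd2 is higher off than on at both days, and Ddit4 is highest in the day 14 on libraries.

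Among the serine and one-carbon genes the mitochondrial folate enzymes were higher with R882H off, while the first step of serine synthesis was not called. Of 6 genes, 4 were called higher at day 14 and 0 lower, beside 16.9% and 14.9% of all tested genes. Mthfd2 (ENSMUSG00000005667, chromosome 6, 83305691 to 83325908, mm10), a mitochondrial folate enzyme that is low in most resting adult tissues, had 88.2, 72.3, 82.4 and 67.3 CPM in day 14 off libraries, against 35.9 and 29.9 CPM in day 14 on libraries. The off values lay well clear of the on values, with a log2 change of 1.24 ± 0.17 (edgeR adjusted p = 4.45e-04). Mthfd1l, which releases formate from mitochondrial folate (ENSMUSG00000040675, chromosome 10, 3973118 to 4167081, mm10), had 169, 171, 157 and 147 CPM in day 14 off libraries, against 45.4 and 70.3 CPM in day 14 on libraries. Again the groups were far apart, with a log2 change of 1.47 ± 0.31 (edgeR adjusted p = 0.00560, and 0.0702 without day 14 on replicate 1).

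Shmt2, which moves a carbon from serine to mitochondrial folate, had 30.1, 25.4, 21.6 and 23.5 CPM in day 14 off libraries, against 13.9 and 15.7 CPM in day 14 on libraries. Its log2 change was 0.76 ± 0.23 (edgeR adjusted p = 0.0276). Psat1, the aminotransferase in the middle of serine synthesis, had 61.6, 48.9, 41.6 and 43.0 CPM in day 14 off libraries, against 26.4 and 29.2 CPM in day 14 on libraries, a change of 0.81 ± 0.24 (0.0253). Neither gene's groups overlapped, but each call was lost without day 14 on replicate 1 (adjusted p = 0.193 for Shmt2 and 0.174 for Psat1), day 14 on replicate 2 (0.0837 and 0.0866), day 14 off replicate 1 (0.0855 and 0.0771) or day 14 off replicate 2 (0.0664 and 0.0593), and that of Shmt2 also without day 14 off replicate 4 (0.0557). Phgdh, the first enzyme of serine synthesis, changed by 0.29 ± 0.28 (edgeR adjusted p = 0.467), and Psph, the last, by 0.16 ± 0.22 (0.621). Psph shares 452 exonic bases with Cct6a on the opposite strand, which had 20.5 to 48.3 times its counts.

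Asns had the largest log2 rise among the called genes of the list, from low counts. Asns (ENSMUSG00000029752, chromosome 6, 7675169 to 7693254, mm10) makes asparagine from aspartate and is a textbook ATF4 target; leukaemic cells with little of it depend on asparagine from outside. It had 4.06, 4.61, 2.13 and 2.07 CPM in day 14 off libraries, against 0.518 and 0.181 CPM in day 14 on libraries. All 4 off libraries were above both on libraries, and off replicates 1 and 2 were higher than off replicates 3 and 4. The summed counts were 164 in the day 14 off libraries and 7 in the day 14 on libraries, a depth-corrected ratio of 9.59 with an exact 95% counting interval of 4.55 to 24.2. The fitted log2 change was 3.20 ± 0.60 (edgeR adjusted p = 0.00246).

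Pck2, the mitochondrial enzyme that makes phosphoenolpyruvate (ENSMUSG00000040618, chromosome 14, 55540266 to 55551242, mm10), had 32.1, 35.1, 32.5 and 29.5 CPM in day 14 off libraries, against 13.9 and 17.6 CPM in day 14 on libraries. The off libraries were close together and clear of the on libraries, with a log2 change of 1.03 ± 0.20 (edgeR adjusted p = 0.00281). Aldh18a1, which starts proline synthesis from glutamate, had 15.6, 17.6, 8.95 and 12.8 CPM in day 14 off libraries, against 4.66 and 4.79 CPM in day 14 on libraries. It rose by 1.54 ± 0.38 (edgeR adjusted p = 0.0114), a call lost without day 14 on replicate 1 (0.0802) or replicate 2 (0.0664). Pycr1, which completes proline synthesis, was low, at 0.482 to 1.27 CPM in day 14 off libraries and 2.59 and 0.452 CPM in day 14 on libraries, and did not pass (-0.72 ± 0.76, adjusted p = 0.506).

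Of 5 transporter genes, Slc7a5 alone was called at day 14 (20%), beside 31.8% of all tested genes. Slc7a5 encodes LAT1, which exchanges glutamine for leucine and other large amino acids. It had 76.5, 72.9, 50.5 and 62.0 CPM in day 14 off libraries, against 22.6 and 31.6 CPM in day 14 on libraries. The groups did not overlap, and the log2 change was 1.27 ± 0.36 (edgeR adjusted p = 0.0218). That call was lost without day 14 on replicate 1 (0.181), day 14 on replicate 2 (0.0579), day 14 off replicate 1 (0.0590) or day 14 off replicate 2 (0.0531).

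Slc3a2, the heavy chain that LAT1 needs at the cell surface, did not pass with it. Slc3a2 had 124, 113, 136 and 113 CPM in day 14 off libraries, against 104 and 109 CPM in day 14 on libraries (log2 change 0.19 ± 0.12, edgeR adjusted p = 0.265). Slc7a11, the cystine importer, had 2.62, 2.05, 1.17 and 2.26 CPM in day 14 off libraries, against 0.933 and 0.813 CPM in day 14 on libraries. Its groups did not overlap, but the log2 change of 1.20 ± 0.71 did not pass (edgeR adjusted p = 0.227). Slc7a1, the arginine and lysine importer, changed by -0.18 ± 0.21 (adjusted p = 0.553), and Slc1a5, a glutamine importer, by -0.12 ± 0.15 (0.567).

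The tRNA synthetases load amino acids onto tRNAs. At day 14, 9 of 12 were called higher and 0 lower, beside 16.9% and 14.9% of all tested genes. Over all tested genes the median log2 change was 0.01, and over the synthetases it was 0.58. Gars (glycine; ENSMUSG00000029777, chromosome 6, 55038007 to 55079500, mm10) led them, with 55.5, 58.6, 54.6 and 54.0 CPM in day 14 off libraries, against 27.2 and 28.5 CPM in day 14 on libraries. The spread within each group was small beside the gap, and the log2 change was 1.0 ± 0.13 (edgeR adjusted p = 3.42e-04). Eprs (glutamate and proline) had 509, 537, 435 and 479 CPM in day 14 off libraries, against 303 and 346 CPM in day 14 on libraries, a change of 0.59 ± 0.14 (0.00784). In both genes all off libraries were above both on libraries.

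The other called synthetases were higher off than on by less than Gars. The 12 synthetases of the list summed to 1181 to 1392 CPM in day 14 off libraries and 843 to 927 CPM in day 14 on libraries. Day 5 sums lay between, at 1100 to 1153 CPM off and 1097 to 1111 CPM on. Eprs was the most abundant of the 12. Cars (cysteine) changed by 0.76 ± 0.18, Aars (alanine) by 0.73 ± 0.21, Tars (threonine) by 0.65 ± 0.15, Mars (methionine) by 0.62 ± 0.18, Iars (isoleucine) by 0.57 ± 0.16, Lars (leucine) by 0.57 ± 0.17 and Nars (asparagine) by 0.42 ± 0.14, with edgeR adjusted p from 0.00835 to 0.0452. Wars (tryptophan; 0.22 ± 0.21), Yars (tyrosine; 0.12 ± 0.16) and Sars (serine; -0.05 ± 0.14) did not pass. Without day 14 on replicate 1 the calls of Aars (adjusted p = 0.234), Eprs (0.106), Iars (0.151), Lars (0.220), Mars (0.252), Nars (0.0983) and Tars (0.139) were lost. Without day 14 on replicate 2 those of Cars (0.0873), Iars (0.0899), Lars (0.0620) and Nars (0.268) were lost. Leaving out day 14 off replicate 1 or 2 ended the calls of Aars, Iars, Lars, Mars and Nars (adjusted p from 0.0503 to 0.134), leaving out day 14 off replicate 3 those of Aars (0.0530) and Lars (0.0534), and leaving out day 14 off replicate 4 those of Mars (0.0637) and Nars (0.113); Nars also lost its call without either day 5 off replicate or day 5 on replicate 1 (0.0566 to 0.0706), and in 12 of 19 alternatives in all. Exosc6 lies on the same strand within the exons of Aars, and the counts of Exosc6 were 0.741 to 0.865 times those of Aars, so the counts of this pair may hold the same reads.

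**Figure D4:**
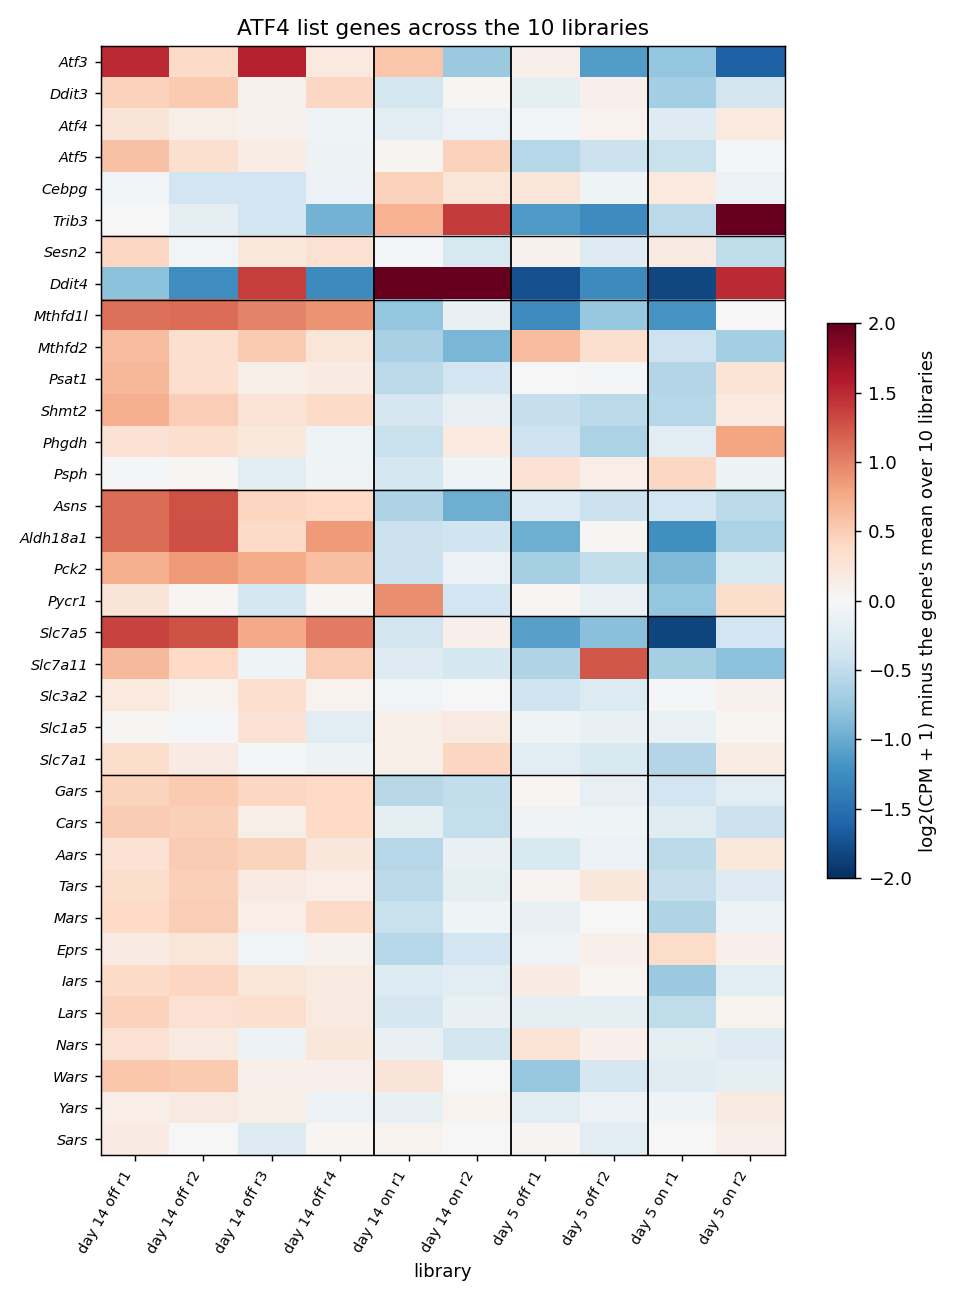
Level of each of the 35 tested genes in each of the 10 libraries as log2(CPM + 1) minus the gene's mean over the libraries, with red above and blue below the mean and colours cut at 2 and -2. The 4 day 14 off columns are red for Mthfd1l, Mthfd2, Shmt2, Asns, Pck2, Slc7a5 and Gars. Trib3 and Ddit4 are red in the day 14 on columns and in day 5 on replicate 2, and Ddit4 also in day 14 off replicate 3.

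At day 5 Mthfd2 was the only gene of the list that passed. It had 87.7 and 71.5 CPM in day 5 off libraries, against 42.3 and 34.99 CPM in day 5 on libraries, with no overlap and a log2 change of 1.04 ± 0.19 (edgeR adjusted p = 0.0439). Of all tested genes 0.484% were called at day 5, 0.371% higher and 0.113% lower, and 0 genes of the list were lower. Erythroid markers summed to 1139 to 2498 CPM in day 5 off libraries, against 1495 to 3560 CPM in day 5 on libraries. Of the 16 markers 3 were called higher. Their log2 changes were positive for 12 and negative for 4, with a median of 2.46. The most abundant of them, Hbb-bt, changed by -1.02 ± 0.54 (edgeR adjusted p = 0.416). At an unadjusted p under 0.05, 9 of the 35 genes differed in either direction, beside 14.9% of all tested genes, and the median log2 change was 0.00. In 8 genes of the list both off libraries lay above both on libraries and in 5 both lay below, against 19.3% and 20.9% of all tested genes. The call of Mthfd2 was lost with limma voom (adjusted p = 0.0669), when only the compared groups were fitted (0.374), and without any 1 of the 4 day 14 off libraries (0.0590 to 0.0767), either day 5 off library (0.121 and 0.176) or day 5 on replicate 2 (0.136). With day 5 on replicate 1 left out, 2 genes of the list were called lower.

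The remaining genes named at day 5 did not pass. Asns had 0.928 and 0.730 CPM in day 5 off libraries, against 0.787 and 0.601 CPM in day 5 on libraries (log2 change 0.26 ± 0.64, edgeR adjusted p = 0.891). Ddit3 had 24.9 and 30.4 CPM in day 5 off libraries, against 17.2 and 21.7 CPM in day 5 on libraries (0.50 ± 0.22, adjusted p = 0.309). Trib3 had 0.619 and 0.487 CPM in day 5 off libraries, against 1.46 and 17.4 CPM in day 5 on libraries, and Ddit4 had 17.8 and 25.4 CPM off, against 16.97 and 178 CPM on. Both genes were far higher in day 5 on replicate 2 than in day 5 on replicate 1, so that their day 5 levels differed as much within the on group as between groups. The log2 change of Trib3 at day 5 was -4.11 ± 1.03 (edgeR adjusted p = 0.119). Over the alternatives it ran from -4.99 to -1.37, and was -1.37 without day 5 on replicate 2 (adjusted p = 0.469, the highest). It was called with no low-count filter (1.97e-14), with DESeq2 (6.76e-04) and without day 5 on replicate 1 (0.00406). Chac1 had 0.103 and 0.406 CPM in day 5 off libraries, against 0.450 and 0.3004 CPM in day 5 on libraries, and was not tested.

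The change with R882H off was larger at day 14 than at day 5 by the test of the difference for 1 gene of the list. That gene was Mthfd1l, with a difference of 2.01 ± 0.46 between the log2 changes (edgeR adjusted p = 0.0480). Its day 5 levels were 32.2 and 45.9 CPM in off libraries, against 34.2 and 78.6 CPM in on libraries, which overlap. The call of Mthfd1l was lost with RLE scaling (0.0555), without 3 ribosomal RNA locus genes (0.0510) and in 9 of the 10 fits that left out 1 library (adjusted p from 0.0527 to 0.209), day 5 on replicate 1 being the exception. Without day 5 on replicate 2 the difference was 1.23 (adjusted p = 0.0771). Of all tested genes 3.06% were called for this difference, 1.65% higher and 1.41% lower. In the list 29 of 35 differences were positive, against 51.5% of all tested genes, with a median of 0.35, against 0.03 over all tested genes. An unadjusted p under 0.05 was found for 12 of the 35, beside 23.1% of all tested genes. The 2 comparisons share no library, but they share 1 estimate of the spread. Asns had a difference of 2.94 ± 0.89 (edgeR adjusted p = 0.0901), Trib3 of 2.26 ± 1.29 (0.321), Atf4 of 0.23 ± 0.23 (0.581) and Ddit3 of 0.04 ± 0.28 (0.952). The Asns difference was called with the replicate block (3.39, edgeR adjusted p = 0.0358) and with no low-count filter (0.0242), over a range of 0.0242 to 0.228. The Trib3 difference was called with no low-count filter (0.00644) and without day 5 on replicate 1 (3.10, 0.0342), and without day 5 on replicate 2 it was -0.51 (0.791).

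Between the days, 9 genes of the list were higher at day 14 than at day 5 with R882H off, and 0 were lower, while 17% of all tested genes were called, 10.1% higher and 6.94% lower. The comparison reuses libraries of the treatment comparisons above. Of the 16 erythroid markers 12 were called higher in it, with sums of 3808 to 5107 CPM in day 14 off libraries, against 1139 to 2498 CPM in day 5 off libraries; their part was not tested. Slc7a5 rose most, with 76.5, 72.9, 50.5 and 62.0 CPM in day 14 off libraries, against 13.4 and 16.1 CPM in day 5 off libraries, a log2 change of 2.14 ± 0.38 (edgeR adjusted p = 0.00553). Mthfd1l rose by 2.04 ± 0.32 (0.00361), Asns by 1.96 ± 0.51 (0.0261), Aldh18a1 by 1.49 ± 0.38 (0.0233) and Pck2 by 1.37 ± 0.20 (0.00242). Of the 9 calls, that of Pck2 alone held in every alternative. Every day 14 off library lay above both day 5 off libraries for 20 of the 35 genes and below them for 1, against 24.2% and 21.5% of all tested genes. Shmt2 rose by 1.04 ± 0.24, Wars by 0.93 ± 0.22, Gars by 0.52 ± 0.13 and Slc3a2 by 0.50 ± 0.13, with edgeR adjusted p from 0.0139 to 0.0216. The calls depended on which libraries were in the fit. Without day 14 off replicate 1, 4 genes of the list were called, while the share of all genes called was 9.93%. Leaving out a day 5 library leaves 1 in its group, so sizes alone are given here, which do not show that calls hold. Without day 5 off replicate 1 the log2 changes were 2.007 for Slc7a5, 1.795 for Mthfd1l, 2.115 for Asns and 1.013 for Aldh18a1. In that fit Shmt2 changed by 1.073, Wars by 0.715, Gars by 0.608 and Slc3a2 by 0.428. Atf4 changed by 0.09 ± 0.15 (edgeR adjusted p = 0.732), Ddit3 by 0.42 ± 0.19 (0.149) and Trib3 by 1.71 ± 1.01 (0.274). Among the alternatives, Trib3 was called higher with no low-count filter (edgeR adjusted p = 0.00494) and when only the compared groups were fitted (0.0438). Ddit3 was called higher with replicate number as a term (0.0429).

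With R882H on, 1 gene of the list passed between the days. Eprs had 303 and 346 CPM in day 14 on libraries, against 584 and 488 CPM in day 5 on libraries, a log2 change of -0.72 ± 0.16 (edgeR adjusted p = 0.0424). Of all tested genes 2.32% were called, 0.968% higher and 1.36% lower. Both day 14 on libraries lay above both day 5 on libraries for 10 of the 35 genes and below them for 3, against 20.6% and 23.1% of all tested genes. The call of Eprs was lost with RLE scaling, without the ribosomal RNA locus genes, when only the compared groups were fitted and in 9 of the 10 fits that left out 1 library (adjusted p from 0.0502 to 0.408). It was kept without day 5 on replicate 2. Asns changed by -0.98 ± 0.73 (edgeR adjusted p = 0.490), Atf4 by -0.14 ± 0.17 (0.692), Ddit3 by 0.38 ± 0.22 (0.354) and Trib3 by -0.54 ± 0.80 (0.753).

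Other genes around ATF4 were read at day 14 from lists by function. Of 17 genes of the eIF2 kinases, eIF2 phosphatase and eIF2B, the exchange factor that phosphorylated eIF2 blocks, 8 were called higher and 2 lower. Of all tested genes 16.9% were called higher and 14.9% lower. Eif2ak1, which encodes HRI, the heme-regulated eIF2 kinase of red cell precursors, had 92.9, 100.2, 95.4 and 89.3 CPM in day 14 off libraries, against 59.7 and 59.6 CPM in day 14 on libraries. It rose by 0.66 ± 0.13 (edgeR adjusted p = 0.00265) with no overlap between groups. The other kinases did not pass, with log2 changes of 0.65 ± 0.28 for Eif2ak2 (PKR; edgeR adjusted p = 0.100), -0.35 ± 0.21 for Eif2ak3 (PERK; 0.231) and -0.17 ± 0.24 for Eif2ak4 (GCN2, which senses uncharged tRNA; 0.614). Eif2ak2 was called higher with no low-count filter, when only the compared groups were fitted and without day 5 on replicate 2 (0.0411 to 0.0459). Gcn1, the GCN2 activator, rose by 0.81 ± 0.15 (0.00238) and the eIF2B subunit gene Eif2b4 by 0.95 ± 0.14 (7.80e-04), while Oma1, the mitochondrial protease that signals to HRI, fell by 0.72 on the log2 scale (0.00475).

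Of 24 other ATF4 targets, 15 passed the low-count filter, 6 of which were called higher and 2 lower at day 14. The shares of all tested genes were 16.9% higher and 14.9% lower. Cth, which makes cysteine from cystathionine, had 3.73, 4.69, 1.58 and 1.98 CPM in day 14 off libraries, against 0.415 and 0.271 CPM in day 14 on libraries, a log2 change of 3.10 ± 0.63 (edgeR adjusted p = 0.00401). Its order over the libraries was like that of Asns, with off replicates 1 and 2 highest. Vegfa, a blood vessel growth factor gene that hypoxia also induces, rose by 3.32 ± 0.37 (edgeR adjusted p = 1.38e-04), Eif4ebp1, a brake on cap-dependent translation, by 1.40 ± 0.24 (0.00152) and Gadd45a, a growth arrest gene, by 1.36 ± 0.28 (0.00419).

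Synthetases outside the list moved in the same direction where they were called. Of 11 other cytosolic synthetase genes 4 were called higher and 0 lower, namely Hars (1.01 ± 0.13), Farsb (0.90 ± 0.14), Aimp2 (a scaffold of the synthetase complex, 0.86 ± 0.20) and Rars (0.84 ± 0.12), with edgeR adjusted p from 3.41e-04 to 0.00846. Of 17 mitochondrial synthetase genes 4 were called higher and 0 lower, among them Nars2 (1.18 ± 0.21), Tars2 (0.96 ± 0.20) and Yars2 (0.74 ± 0.24). Without day 14 on replicate 1 the calls of Aimp2 (edgeR adjusted p = 0.124) and Tars2 (0.0687) were lost, and that of Yars2 was lost in 10 of 19 alternatives (up to 0.337). The shares called higher, 36.4% and 23.5%, stand beside 75% of the 12 synthetases of the list and 16.9% of all tested genes.

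Genes of cytosolic folate metabolism were called higher too. Of 10 tested cytosolic folate and thymidylate genes 5 were called higher and 1 lower, beside 16.9% and 14.9% of all tested genes. Mthfd1, the cytosolic counterpart of Mthfd2 and Mthfd1l, had 120.0, 119, 102.3 and 105 CPM in day 14 off libraries, against 16.0 and 20.9 CPM in day 14 on libraries. Its log2 change was 2.60 ± 0.21 (edgeR adjusted p = 4.78e-05). Fpgs, which traps folates in cells, changed by 2.60 ± 0.38 (edgeR adjusted p = 8.07e-04), and Tyms, which makes thymidylate, by 1.32 ± 0.17 (3.14e-04).

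Of 20 genes of the endoplasmic reticulum arm of the unfolded protein response, 4 (20%) were called higher and 2 (10%) lower at day 14, near the 16.9% and 14.9% of all tested genes. Hspa5, the main chaperone of the compartment, had 1275, 1092, 1404 and 1173 CPM in day 14 off libraries, against 759 and 631 CPM in day 14 on libraries, and rose by 0.83 ± 0.16 (edgeR adjusted p = 0.00281). Dnajb11, a co-chaperone gene, rose by 0.48 ± 0.15 (0.0316), while Edem1, which acts in disposal of misfolded protein, fell by 0.69 on the log2 scale (0.0114) and Atf6, a sensor gene, fell by 0.90 on that scale (0.0280). The call of Dnajb11 was lost in 6 of 19 alternatives (edgeR adjusted p up to 0.216), and without day 14 on replicate 1 those of Edem1 (0.0840) and Atf6 (0.256) were lost too; Atf6 also lost its call without day 14 off replicate 2 or 4 (0.0556 and 0.0583).

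**Figure D5:**
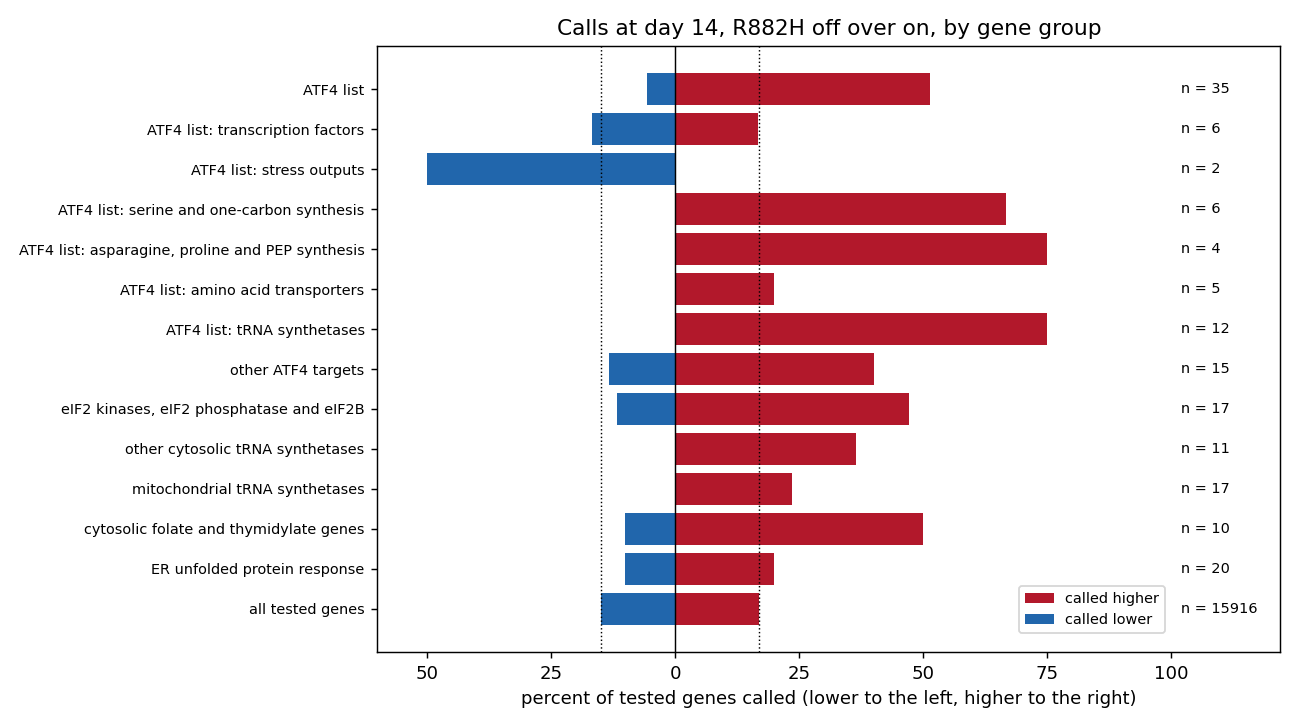
Percent of the tested genes called higher (red, to the right) and lower (blue, to the left) at day 14, off over on, for the ATF4 list, its roles and the other lists, with the number of tested genes at the right; dotted lines give the shares of all tested genes, 16.9% higher and 14.9% lower. The red bars reach 75% for the tRNA synthetases and for asparagine, proline and phosphoenolpyruvate (PEP) synthesis, and 51.4% for the whole list.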

How the data were processed

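Per the labels' protocols, polyA RNA of sorted cells was made into QuantSeq 3′ libraries and sequenced as single-end reads. The submitters' processing notes name HISAT2 2.0.4 and cutadapt 1.14 for reads, featureCounts from Subread 2.0.0, build mm10, and also limma 3.48.3, edgeR 3.34.0 and bcl2fastq 2.17.1.14. Their settings, the strand rule and the annotation release used are not given in the sources. For 10 libraries the authors deposited unnormalised counts, by Ensembl gene ID. Of 52636 gene IDs 52489 matched GENCODE M21, which gave symbols and mm10 positions; 147 did not.

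In R 4.3.3, edgeR 4.0.16 was run on these counts: genes kept by filterByExpr with the 4 groups, TMM scaling, and 1 robust quasi-likelihood fit of 4 group means over all 10 libraries (6 residual degrees of freedom). The 5 comparisons used the quasi-likelihood test with Benjamini-Hochberg adjusted p over the 15916 genes that passed, and calls were made at 0.05. Changes are log2 with standard errors. CPM values are not corrected for gene length.

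The members and lists were chosen with earlier results of these data known. Every called gene of the list was named in its comparison, and Atf4, Ddit3, Asns, Chac1 and Trib3 always; of the other lists, the eIF2 kinases and up to 4 genes of smallest p called at day 14; some items so named are not reported here. Dnmt3a was added after its values could be seen. Alternatives were RLE scaling, no low-count filter (at least 1 count), 5 CPM in at least 2 libraries, DESeq2 1.42.0, limma voom (limma 3.58.1), replicate number as a term, non-robust dispersion, no ribosomal RNA locus genes, a fit restricted to the pair of groups compared, and each library left out in turn.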

Additional observations from a re-analysis of the deposited data

Results flagged for a closer look

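Ddit4 in day 14 off replicate 3, at 165.0 CPM, stood apart from the other 3 day 14 off libraries, which had 25.3 to 35.1 CPM. All 37 genes were checked in that group of 4 libraries, where chance sets a library apart in about 1 gene in 20, and Ddit4 was the only one. Without this library the call of Ddit4 at day 14 was kept.

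For Mthfd1l the change with R882H off differed between the days, by 2.01 on the log2 scale (edgeR adjusted p = 0.0480). The log2 change was 1.47 ± 0.31 at day 14 and -0.53 ± 0.34 at day 5, where it did not pass. Of the day 5 on libraries, replicate 2 had 78.6 CPM and replicate 1 had 34.2 CPM. Without replicate 2 the difference was 1.23 (adjusted p = 0.0771).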

How the results depend on the processing

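With all libraries kept, 70 counts of called genes of the list, over comparisons, directions and settings, stayed within 1.5 times the reported count and 18 did not. Most of the reported counts were 0 or 1, and a 0 that stayed at 0 is among the 70, so this tally says little about stability. Leaving out 1 library gave 5 to 18 higher and 0 to 3 lower genes at day 14, 0 to 1 higher and 0 to 2 lower at day 5, 0 to 9 higher for the difference between days, 1 to 14 higher between days with R882H off, and 0 to 1 higher and 0 to 1 lower with R882H on; a lone library is then taken to vary as the remaining groups do. Replicate 1 libraries deviated together (correlations 0.287 to 0.535 over 6 group pairs), but with 2 numbers shared between groups the numbers do not pair the samples. With a replicate block the day 14 comparison had 19 higher and 1 lower, day 5 had 1 and 0, and the difference between days had 4 higher. In that fit day 14 over day 5 had 14 higher with R882H off, and 1 higher and 1 lower with R882H on. Of all genes the block called 32.6%, 1.41%, 9.56%, 19.1% and 6.37% in these 5 comparisons, in this order. The reported fit called 31.8%, 0.484%, 3.06%, 17% and 2.32%. With no low-count filter there were 2 higher and 3 lower at day 5. That fit had 7 higher for the difference between days and 3 higher with R882H on, where 6.75% and 4.4% of all genes were called. All genes called at day 5 then numbered 992, against 77 reported. DESeq2 called 1 lower at day 5, 5 higher for the difference between days and 472 of all genes at day 5. For the difference it called 8.34% of all genes. At day 5 limma voom called 0 higher, as did the fit of only the compared groups; 0 of all genes were then called, likewise without day 14 off replicate 1 or 4, and 2 without day 5 off replicate 2. The fit of only the compared groups called 15 higher between days with R882H off and 0 lower with R882H on. Of all genes it called 25% with R882H off and 0 with R882H on. RLE scaling and leaving out ribosomal RNA locus genes each gave 0 higher for the difference between days and 0 lower with R882H on. Signs turned for these uncalled changes: Atf4 at day 5 (-0.0034 with the 5 CPM filter; from -0.21 to 0.30 with 1 library left out, and -0.035 without day 5 off replicate 2), its difference between days (-0.067 to 0.43) and change between days with R882H on (-0.35 to 0.14), the Ddit3 difference (-0.012, -0.041, -0.17, -0.12 and -0.20, up to 0.24, with 1 library left out), the Trib3 difference (-0.51 to 3.10) and the Trib3 change with R882H on (0.076 with voom, -1.40 to 2.21 with 1 library left out). Named genes outside the list were run through the same alternatives after their values were seen, and the uncalled Eif2ak4 change at day 14 ran from -0.57 to 0.34 with 1 library left out, turning sign without day 14 on replicate 1. The causes were not tested. Low counts limit Asns, Slc7a11, Pycr1, Nupr1 and Chac1.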

Other observations

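At day 5, genes of the endoplasmic reticulum unfolded protein response lay on 1 side. All 20 genes of that list had a positive log2 change, off over on, against 48.4% of all tested genes. Their median was 0.58, against -0.02 over all tested genes. The 20 changes come from the same day 5 libraries and are not independent of each other. Pdia6, a disulfide isomerase gene picked here after its values were seen as the 1 called gene, had 368 and 299.7 CPM in day 5 off libraries, against 184 and 145 CPM in day 5 on libraries (1.02 ± 0.19, edgeR adjusted p = 0.0477). The call was lost in 9 of 19 alternatives, namely limma voom, the fit of only the compared groups, and without any 1 of the 4 day 14 off libraries, either day 5 off library or day 5 on replicate 2 (adjusted p from 0.0544 to 0.387). With R882H off, 9 of these 20 genes were lower at day 14 than at day 5 and 1 was higher, against 6.94% and 10.1% of all tested genes. This comparison uses the same day 5 off libraries as the day 5 changes above, so the results are not independent. The ATF4 list had 0 of 35 lower and 9 higher between the days with R882H off.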
